A study of Mus musculus with 16 samples.

Results

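The subject is a set of 34 mouse genes that sense DNA damage, signal it or repair it, read in liver by sequencing of polyadenylated RNA. The members were taken by symbol: a gene belonged if the symbol column of the deposited expression table equalled 1 of 34 listed names. All 34 had a row among 30199 genes, and 33 of them reached the mean of at least 10 normalized counts over the 16 livers that was required for testing, against 15263 of all genes. The exception was Fancd2, with 2.38 to 13.3 normalized counts in the 16 livers. By role, 5 members are damage-signalling kinases, 4 are break sensors or chromatin mediators, 8 act in nucleotide excision repair, 5 in base excision and single-strand break repair, 2 in end joining and 3 in homologous recombination or the Fanconi pathway. A further 4 are grouped here as translesion polymerases, nucleotide supply and direct reversal, and 3 form the Gadd45 family. Mismatch repair is named in the rule, but no mismatch repair gene is among the members, and those genes were read from a wider list of 124 repair genes given further on.

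The livers came from female mice 5 months old, with 4 mice in each of 4 genotypes. Wild-type mice carried both copies of Ncoa5, which encodes a nuclear receptor coactivator, and of Tip30, whose gene symbol is Htatip2. Ncoa5+/- mice lacked 1 copy of Ncoa5, Tip30+/- mice lacked 1 copy of Tip30, and Ncoa5+/-Tip30+/- mice lacked 1 copy of each. The deletions are labelled as heterozygous with no tissue restriction and no added treatment; neither the strain nor the deleted exons are named in the sources used here. Each library was 1 mouse and 1 frozen piece of liver, labelled as mainly hepatocyte, so values are those of whole tissue. Mice are named here by genotype and a number that carries no order.

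DNA damage is read by kinases that halt the cell cycle and mark the lesion, and is then removed by the pathway that fits the lesion. Bulky adducts and ultraviolet photoproducts go to nucleotide excision repair, oxidized or alkylated bases to base excision repair or to direct reversal, and double-strand breaks to end joining or homologous recombination. Lesions that remain when DNA is copied can be bypassed by translesion polymerases. Hepatocytes meet many such lesions, because they convert foreign and endogenous compounds into reactive products, and they seldom divide.

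The libraries held 24740706 to 37939978 reads on genes. All 9 hepatocyte markers found in the table were high, with Alb between 1290000 and 2292000 normalized counts. Htatip2 lay at 685 to 1088 normalized counts in the 8 livers labelled with the Tip30 deletion and at 1835 to 2910 in the other 8, so the ranges did not overlap. Ncoa5 lay at 339 to 424 in the 8 livers with its deletion and at 380 to 480 without it, which overlapped (limma, log2 difference -0.11 ± 0.07 SE, adjusted p = 0.357); since the deleted part is not given, these reads do not check the Ncoa5 genotype. Cdkn1a, which encodes the p53-induced cell cycle inhibitor p21, was 49.2 to 130 in the 8 livers with both Ncoa5 copies and 1006 to 4893 in those lacking 1, while Trp53, which encodes p53 itself, was 506 to 656 throughout (log2 difference 0.01 ± 0.07, adjusted p = 0.953). In 4 livers, wild type 1 and 2 and Ncoa5+/- 1 and 4, Zhx2, a transcriptional repressor gene, lay at 8.77 to 26.3 normalized counts against 166 to 438 in the other 12. Calls of members and of wider-list genes printed here that were lost without these 4 are therefore given as such. Calls of cell type markers and of Cdkn1a are not reported for that setting.

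The main comparison set the 8 livers with the Ncoa5 deletion against the 8 without it, averaging over the Tip30 backgrounds. Of 33 tested members 3 rose and 1 fell at an adjusted p under 0.05, against 7.89% of all tested genes called in this comparison (3.94% higher and 3.95% lower). The risers were Polk, Mgmt and Ercc5, and the gene that fell was Parp1. Each of the 3 risers was higher in all 8 livers with the deletion than in any of the 8 without it; of all tested genes, 0.786% were separated in this way. The median log2 difference of the 33 members was -0.0036 against -0.01 for all tested genes, and 15 members lay above 0. The set as a whole was therefore centred where the other genes were, with a few members apart from it. In whole tissue, fewer cells of a type and less RNA per cell cannot be told apart.

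**Figure D1:**
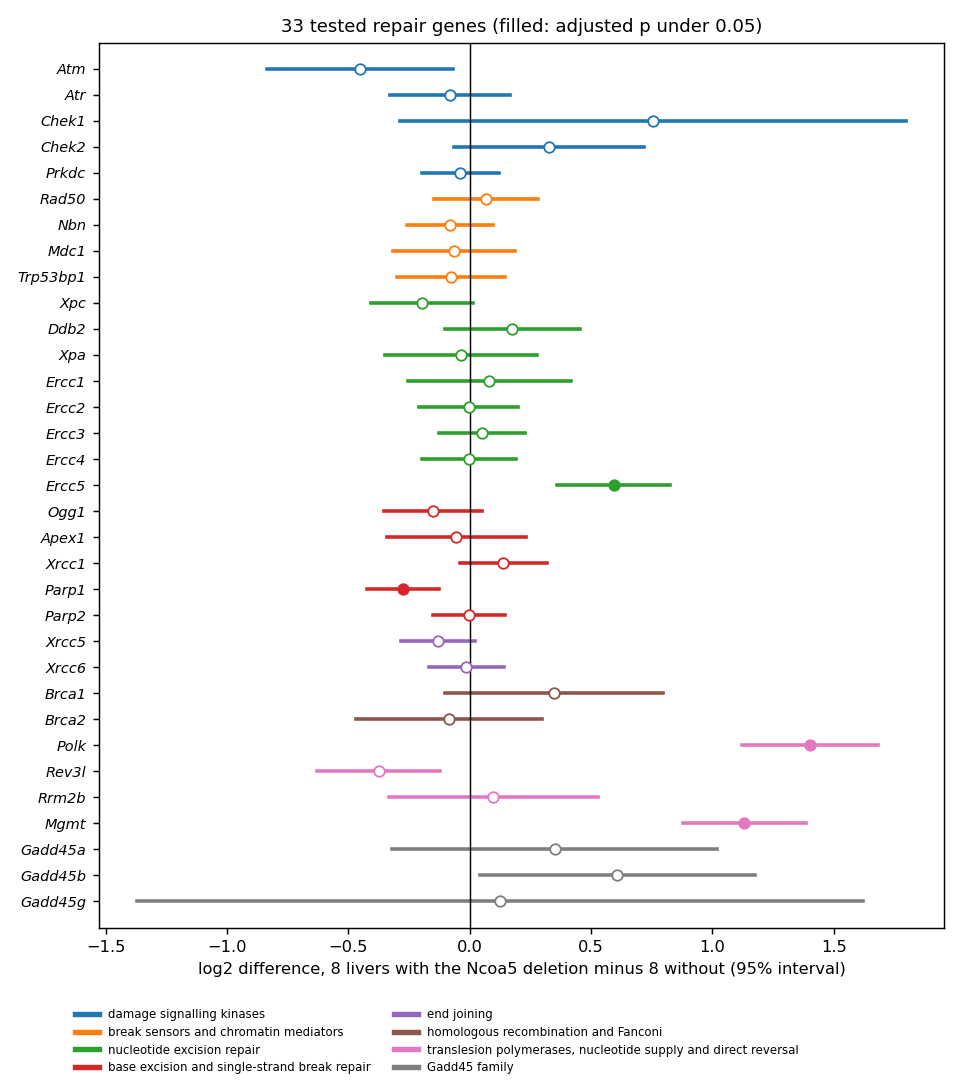
Each row is a tested member, coloured by role, with its log2 difference (8 livers with the Ncoa5 deletion minus 8 without, horizontal axis) and 95% interval; filled points passed the test. Polk, Mgmt and Ercc5 lie to the right of 0 and Parp1 to the left, while Gadd45g and Chek1 have the widest intervals.

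Polk rose most. It encodes DNA polymerase kappa, a translesion polymerase that copies past bulky adducts on guanine, such as those left by polycyclic hydrocarbons, and the mouse gene has been described as p53-inducible. Its gene (ENSMUSG00000021668) lies on the minus strand at chr13:96480690-96542579 of GRCm38. In normalized counts, Polk was 107, 88.3, 74.9 and 92.9 in wild-type livers 1 to 4. In Ncoa5+/- livers it was 278, 159, 242 and 206. In Tip30+/- livers it was 78.5, 82.4, 90.4 and 93.2, and in Ncoa5+/-Tip30+/- livers 210, 284, 330 and 209. The lowest liver with the Ncoa5 deletion, Ncoa5+/- 2, was still above the highest without it, wild type 1, and the Tip30 genotypes overlapped within each Ncoa5 genotype. Over both backgrounds the difference was 1.40 ± 0.13 on the log2(normalized count + 1) scale, or 2.64-fold (95% interval 2.18 to 3.21; limma, adjusted p = 5.21e-06). The exact two-sided permutation test over mice gave p = 0.000408, the smallest that its 4900 arrangements within the Tip30 backgrounds allow. Complete separation always gives this value, here and for the genes below, so it adds nothing to the separation itself.

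Mgmt encodes O6-methylguanine-DNA methyltransferase, which moves an alkyl group from guanine to itself and is used up by doing so. Its gene (ENSMUSG00000054612) lies on the plus strand at chr7:136894614-137130266. Mgmt was 448, 383, 565 and 508 normalized counts in wild-type livers 1 to 4 and 1304, 991, 1026 and 842 in Ncoa5+/- livers. It was 480, 527, 561 and 536 in Tip30+/- livers and 1090, 1548, 1285 and 831 in Ncoa5+/-Tip30+/- livers. The 8 livers with the Ncoa5 deletion, the lowest being Ncoa5+/-Tip30+/- 4, were all above the highest of the others, wild type 3. The difference was 1.13 ± 0.12 (log2), or 2.19-fold with an interval of 1.84 to 2.61 (limma, adjusted p = 2.11e-05), and the exact permutation p was again the smallest possible, 0.000408.

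The other members of this role class did not pass. Rev3l encodes the catalytic subunit of DNA polymerase zeta, which extends from the base placed opposite a lesion. It ran from 233 to 451 normalized counts with the Ncoa5 deletion and from 389 to 450 without it, and 6 of 8 livers with the deletion lay below every other liver, but the difference of -0.38 ± 0.12 (log2) missed the threshold (limma, adjusted p = 0.0636). Rrm2b, a p53-inducible subunit of ribonucleotide reductase that supplies nucleotides for repair, had a difference of 0.10 with a 95% interval of -0.33 to 0.53 (adjusted p = 0.801).

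**Figure D2:**
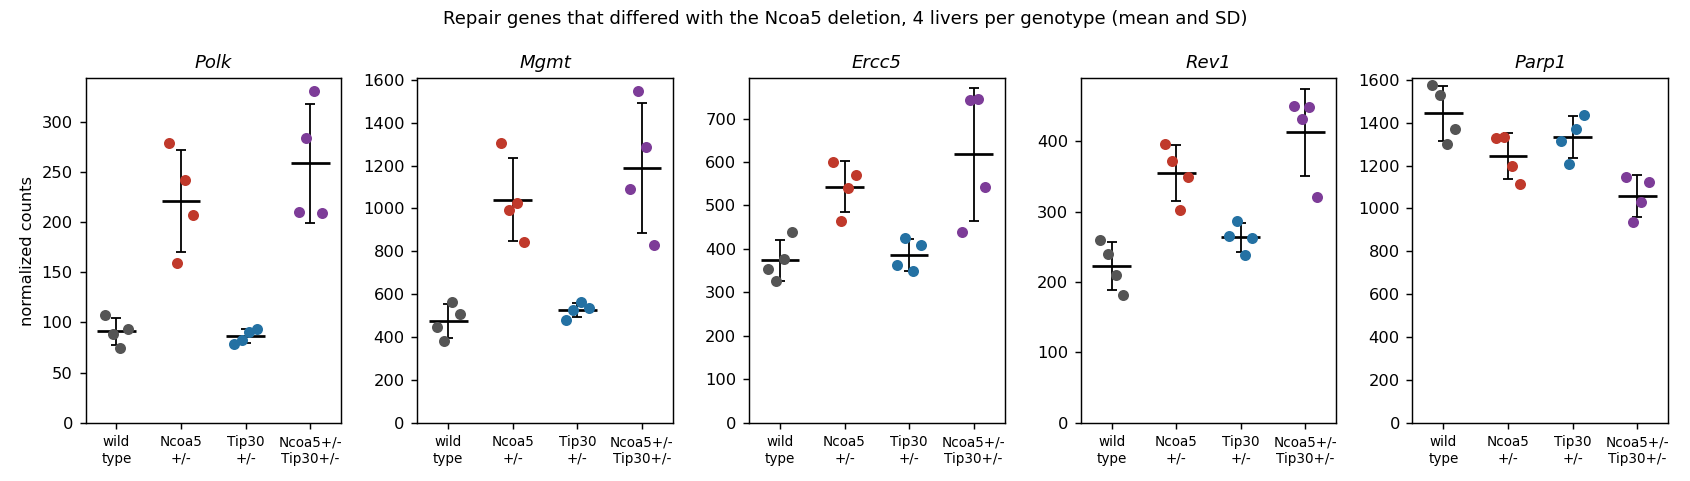
Normalized counts (vertical axis, from 0) of Polk, Mgmt, Ercc5, Rev1 and Parp1 in each liver (points), by genotype, with the mean (bar) and SD (whiskers) of 4 mice. For the first 4 genes every liver with the Ncoa5 deletion lies above every liver without it, and for Parp1 every Ncoa5+/-Tip30+/- liver lies below every liver without the deletion.

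Among the 8 nucleotide excision repair members only Ercc5 passed. Ercc5 encodes XPG, the endonuclease that cuts the damaged strand on the 3′ side of the lesion, and lies on the plus strand at chr1:44147744-44181260 (ENSMUSG00000026048). It was 353, 327, 377 and 439 normalized counts in wild-type livers and 600, 463, 540 and 571 in Ncoa5+/- livers. It was 362, 425, 349 and 409 in Tip30+/- livers and 439, 743, 746 and 542 in Ncoa5+/-Tip30+/- livers. The separation was narrow at 1 point: Ncoa5+/-Tip30+/- 1 had 439.4 and wild type 4 had 438.6. The difference over both backgrounds was 0.59 ± 0.11 (log2), or 1.51-fold, with a 95% interval of 0.36 to 0.83 on the log2 scale (limma, adjusted p = 0.00435; exact permutation p = 0.000408). Without the 4 livers low in Zhx2 it was 0.47 and no longer passed (adjusted p = 0.0746).

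The other 7 excision repair members did not pass. Ercc4, whose product XPF forms with ERCC1 the nuclease that makes the cut on the 5′ side, had a difference of -0.0032 (95% interval -0.20 to 0.19), and Ercc1 one of 0.08 (-0.26 to 0.42). The helicase genes of the repair factor TFIIH, Ercc2 and Ercc3, had -0.0049 and 0.05. Xpa, which encodes a scaffold that verifies the lesion, had -0.03. Xpc and Ddb2, which encode the lesion recognition proteins and are known p53 targets in human cells, had -0.20 (interval -0.41 to 0.01) and 0.17 (-0.10 to 0.45), with adjusted p-values of 0.221 and 0.422 (limma). All values are log2 differences over both backgrounds. Without strand marking, reads shared with genes on the other strand cannot be told apart; such genes overlap 23.8% of the exon bases of Ddb2 (with Acp2) and 24.6% and 17.8% of those of Ercc2.

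The 3 risers had no exon overlap with another annotated gene. The 250 bases before the RefSeq start (GRCm38.p6) of each are shown because these genes rose in the same livers; capitals mark the GC box (GGGCGG or CCGCCC), the CCAAT box (CCAAT or ATTGG), the E box CACGTG, or the p53 half-site consensus, each searched on both strands. Polk is read on the minus strand at chr13:96542580-96542829, Mgmt on the plus strand at chr7:136894336-136894585 and Ercc5 on the plus strand at chr1:44147494-44147743, all 5′ to 3′.
Polk: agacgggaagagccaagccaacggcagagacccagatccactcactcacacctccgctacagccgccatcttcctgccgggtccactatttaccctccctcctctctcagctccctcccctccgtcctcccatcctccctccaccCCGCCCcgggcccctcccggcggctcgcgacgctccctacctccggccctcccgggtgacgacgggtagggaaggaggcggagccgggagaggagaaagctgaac
Mgmt: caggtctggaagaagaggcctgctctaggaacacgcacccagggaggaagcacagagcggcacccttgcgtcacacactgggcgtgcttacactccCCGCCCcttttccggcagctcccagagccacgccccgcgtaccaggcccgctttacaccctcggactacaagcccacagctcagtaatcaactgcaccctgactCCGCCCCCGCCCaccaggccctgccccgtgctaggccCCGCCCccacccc
Ercc5: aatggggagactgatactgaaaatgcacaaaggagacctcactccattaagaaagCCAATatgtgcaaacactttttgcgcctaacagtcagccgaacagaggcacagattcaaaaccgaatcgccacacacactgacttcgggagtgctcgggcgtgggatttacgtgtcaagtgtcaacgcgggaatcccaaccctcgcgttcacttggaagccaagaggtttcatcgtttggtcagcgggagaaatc

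No motif searched for was found in all 3 windows. The window of Polk held 1 GC box and that of Mgmt held 4, of which a pair stood side by side; 32.7% of all 32851 promoter windows of this length held at least 1. The window of Ercc5 held 1 CCAAT box, which 33.8% of all windows did. None of the 3 held a p53 half-site; an alternative RefSeq start of Polk, at chr13:96519188-96519437, held 1, as did 7.13% of all windows. Bases were 68.0% G or C for Polk, 67.2% for Mgmt and 50% for Ercc5, with a median of 52.4% over all windows. Of the 34 members 25 had a window in RefSeq's table, and among them 14 held a GC box, 15 a CCAAT box, 6 an E box (6.02% of all windows) and 2 a p53 half-site. These are matches of letters only.

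Among the 5 members of base excision and single-strand break repair, Parp1 fell. It encodes poly(ADP-ribose) polymerase 1, the main sensor of single-strand breaks, at chr1:180568924-180601254 on the plus strand (ENSMUSG00000026496). Parp1 was 1575, 1529, 1301 and 1370 normalized counts in wild-type livers and 1330, 1333, 1199 and 1115 in Ncoa5+/- livers. It was 1314, 1209, 1371 and 1437 in Tip30+/- livers and 1146, 936, 1029 and 1125 in Ncoa5+/-Tip30+/- livers. The values overlapped between the Ncoa5 genotypes, with 6 of 8 livers with the deletion below every liver without it, and the lowest value was that of Ncoa5+/-Tip30+/- 2. The difference was -0.27 ± 0.07 (log2), a level 82.7% of that without the deletion (limma, adjusted p = 0.0269; exact permutation p = 0.00122). This call was lost in 8 of 27 other settings, among them without the livers low in Zhx2 (-0.21, adjusted p = 0.182), with upper-quartile scaling (-0.21, adjusted p = 0.0648), and without wild type 1, Ncoa5+/- 4, Tip30+/- 3, Tip30+/- 4 or Ncoa5+/-Tip30+/- 2 (highest adjusted p = 0.0587).

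Parp2, which encodes a second break-activated polymerase of the same family, was the most even member between mice and had a difference of -0.0036 (95% interval -0.15 to 0.14). Xrcc1, the scaffold that the polymerases recruit, had 0.14 (-0.04 to 0.32). Ogg1, which encodes the glycosylase for oxidized guanine, had -0.15 (-0.36 to 0.05), and Apex1, the endonuclease that cuts at the abasic site it leaves, had -0.06 (-0.34 to 0.23). These are log2 differences and none passed. Of the exon bases of Apex1, 61.7% overlap Pip4p1 on the other strand, so its reads are uncertain; the share was 10.6% for Ogg1 (with Camk1).

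None of the 5 damage-signalling kinases passed. Atm, the kinase that responds to double-strand breaks, had the smallest p of the class. It was 239, 192, 176 and 224 normalized counts in wild-type livers and 141, 145, 210 and 158 in Ncoa5+/- livers. It was 212, 198, 217 and 228 in Tip30+/- livers and 105, 86.5, 198 and 252 in Ncoa5+/-Tip30+/- livers. The double heterozygotes thus held both the lowest value of the 16 livers and the highest, and the difference of -0.45 ± 0.18 (log2) did not pass (limma, adjusted p = 0.126). Atr, the kinase that responds to stalled forks, had -0.08 (95% interval -0.33 to 0.16), and Prkdc, the catalytic subunit of DNA-dependent protein kinase, had -0.04 (-0.20 to 0.12). Chek2, the kinase downstream of Atm, had 0.33 (-0.06 to 0.72).

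Chek1, the kinase downstream of Atr, varied far more between mice than between genotypes. It was 72.6, 47.3, 18.7 and 6.88 normalized counts in wild-type livers and 62.0, 124, 15.6 and 23.4 in Ncoa5+/- livers. It was 10.2, 15.1, 37.9 and 17.4 in Tip30+/- livers and 40.5, 53.6, 23.4 and 25.8 in Ncoa5+/-Tip30+/- livers. Its difference of 0.76 (log2) had a 95% interval of -0.29 to 1.80 (limma, adjusted p = 0.346). The highest liver, Ncoa5+/- 2, was also the highest of the 16 in Mki67 (291), a marker of dividing cells, and in the replicative helicase gene Mcm6 (878).

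Brca1, which acts in homologous recombination, had its highest value in the same liver. It was 98.2, 64.2, 55.2 and 54.2 normalized counts in wild-type livers and 91.2, 155, 53.1 and 59.4 in Ncoa5+/- livers. It was 41.8, 50.2, 79.7 and 50.2 in Tip30+/- livers and 79.8, 75.3, 73.7 and 56.7 in Ncoa5+/-Tip30+/- livers. All 4 genotypes overlapped, and the difference of 0.35 ± 0.21 (log2) did not pass (limma, adjusted p = 0.315). Brca2, which acts in the same pathway, had -0.09 (95% interval -0.47 to 0.30). The 12 markers of dividing cells summed to 1265 to 5010 normalized counts with the Ncoa5 deletion and to 1048 to 3404 without it, and 1 of the 11 tested, Top2a, rose (log2 difference 1.07, adjusted p = 0.0301). Their part in the values of Chek1 and Brca1 was not tested.

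None of the 4 break sensors and chromatin mediators passed. Nbn, a subunit of the complex that binds broken ends, had the smallest p of its class, at 451, 386, 360 and 415 normalized counts in wild-type livers and 407, 374, 474 and 421 in Ncoa5+/- livers. It was 439, 520, 424 and 475 in Tip30+/- livers and 458, 336, 378 and 433 in Ncoa5+/-Tip30+/- livers. The genotypes overlapped, and the log2 difference was -0.08 with a 95% interval of -0.26 to 0.10 (limma, adjusted p = 0.578). Rad50, its partner in that complex, had 0.07, and the chromatin mediators Mdc1 and Trp53bp1 had -0.06 and -0.08.

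The end-joining pair encodes the Ku heterodimer that caps broken ends. Xrcc5 (Ku80) was 786, 682, 608 and 595 normalized counts in wild-type livers and 617, 562, 642 and 559 in Ncoa5+/- livers. It was 568, 619, 616 and 713 in Tip30+/- livers and 606, 600, 562 and 568 in Ncoa5+/-Tip30+/- livers. Wild type 1 and Tip30+/- 4 were the highest, the groups overlapped, and the log2 difference was -0.13 with a 95% interval of -0.29 to 0.02 (limma, adjusted p = 0.270). Xrcc6 (Ku70) had -0.01 (-0.17 to 0.14).

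The 3 Gadd45 genes encode small stress-induced proteins that bind cell cycle and chromatin partners, and Gadd45a is a known p53 target. None passed. Gadd45b, with the smallest p, was 60.3, 110, 67.4 and 66.2 normalized counts in wild-type livers and 199, 74.3, 78.1 and 112 in Ncoa5+/- livers. It was 53.7, 71.3, 66.1 and 29.7 in Tip30+/- livers and 41.7, 123, 126 and 81.5 in Ncoa5+/-Tip30+/- livers. Of the 8 livers with the deletion 4 were above all others, Ncoa5+/-Tip30+/- 1 was among the lowest, and the difference of 0.61 ± 0.27 (log2) missed the threshold (limma, adjusted p = 0.162). Gadd45a had 0.35 (95% interval -0.32 to 1.02) and Gadd45g 0.12 (-1.37 to 1.62), the widest interval of all members. Gadd45a shares 19.1% of its exon bases with E230016M11Rik on the other strand.

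Cdkn1a was 27.6-fold higher with the Ncoa5 deletion (log2 difference 4.79 ± 0.31, limma, adjusted p = 6.66e-07). Polk, described above as p53-inducible, passed in the same livers (log2 difference 1.40, limma, adjusted p = 5.21e-06). Ddb2, Xpc, Rrm2b and Gadd45a, 4 other members known as p53 targets (Ddb2 and Xpc in human cells), did not pass. A miss does not show that they were unchanged: the upper ends of their 95% intervals were log2 differences of 0.45, 0.01, 0.53 and 1.02 in that order. Of the 29 members that did not pass, 12 had an interval that lay within 1.25-fold in both directions, 21 within 1.5-fold and 25 within 2-fold. Changes above 1.5-fold were therefore outside the intervals of most of these members, while 17 of the 29 intervals reached past 1.25-fold and Gadd45g, Chek1, Gadd45a and Gadd45b were poorly determined.

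**Figure D3:**
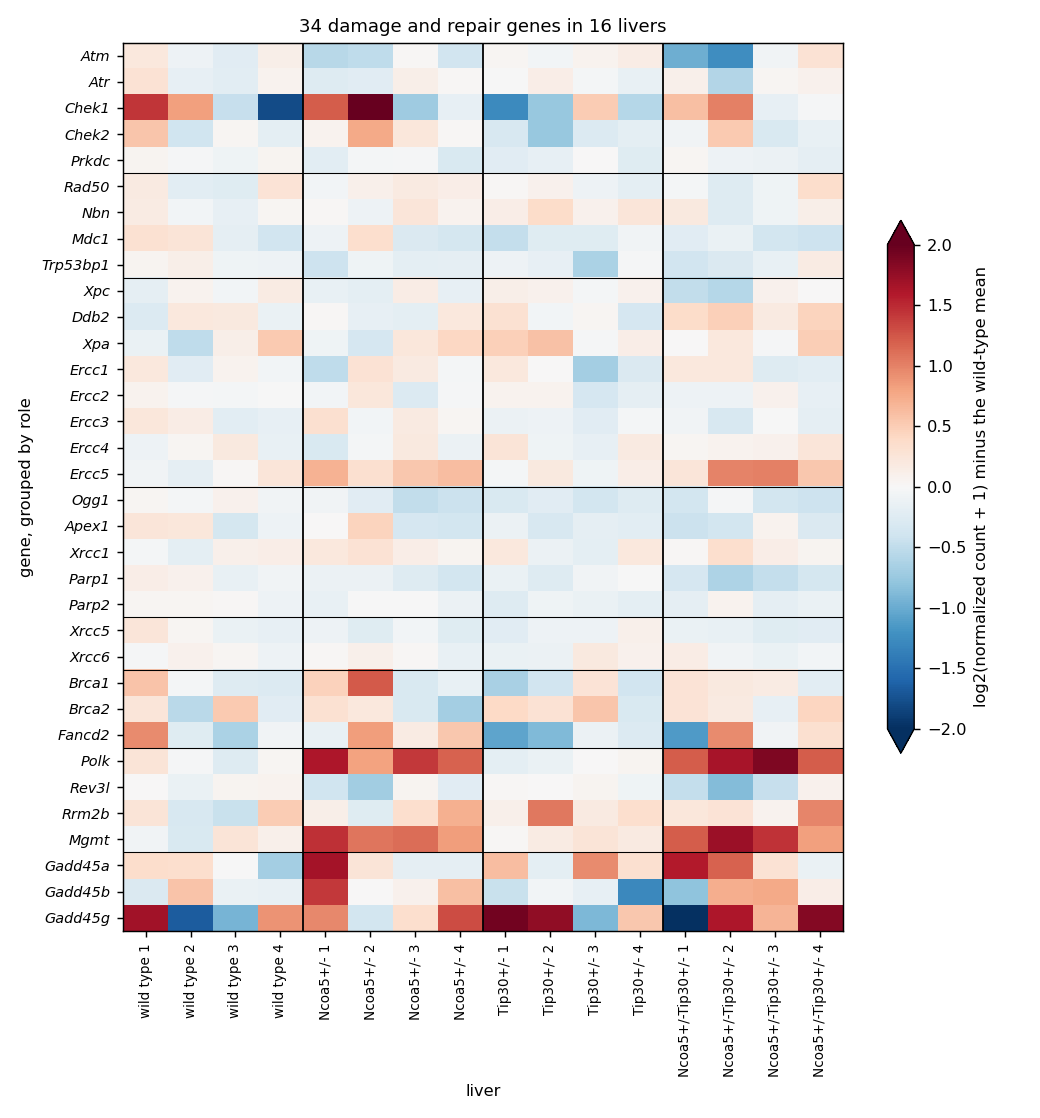
Colour gives log2(normalized count + 1) of each of the 34 members (rows, by role) in each of 16 livers (columns) minus the wild-type mean, with the scale ending at 2 in both directions. Polk, Mgmt and Ercc5 are red across the 8 livers with the Ncoa5 deletion, whereas the Gadd45 genes and Chek1 vary within genotypes.

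Level and spread differed widely over the set. Per kilobase of exon, the highest wild-type levels were those of Gadd45g (682 ± 621 normalized counts per kb, SD, n = 4), Parp1 (273 ± 24.5) and Xrcc5 (261 ± 34.2), and the lowest were Fancd2 (0.892 ± 0.536) and Rrm2b (4.97 ± 1.61). Mgmt ranked 6th of 34 at 164 ± 27.1, Ercc5 15th at 63.8 ± 8.14 and Polk 27th at 16.4 ± 2.41, so the 3 risers came from high, middle and low parts of the range. The SD of log2 values between mice of 1 genotype had a median of 0.23 over the tested members and 0.26 over all tested genes. It was 1.40 for Gadd45g and 1.08 for Chek1, and 0.09 for Parp2. Gadd45g alone ran from 131 to 2068 normalized counts, with both extremes in livers of the Tip30 deletion.

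The Ncoa5 deletion was also read on each Tip30 background, in comparisons that share no mouse. In Ncoa5+/- against wild-type livers 2 of 33 members rose and none fell, against 0.557% of all tested genes called (0.531% higher). They were Polk (1.26 ± 0.19, log2; 2.39-fold; limma, adjusted p = 0.00254) and Mgmt (1.12 ± 0.17; 2.18-fold; adjusted p = 0.00271). In Ncoa5+/-Tip30+/- against Tip30+/- livers 3 rose and none fell, against 3.07% called (1.61% higher): Polk (1.55 ± 0.19, 2.93-fold, adjusted p = 0.000227), Mgmt (1.14 ± 0.17, 2.20-fold, 0.00182) and Ercc5 (0.65 ± 0.16, 1.57-fold, 0.0341). Ercc5 had 0.54 ± 0.16 in the first comparison, where all 4 Ncoa5+/- livers were above all wild-type livers but the adjusted p was 0.165. Parp1 had -0.21 ± 0.10 and -0.33 ± 0.10, with adjusted p-values of 0.477 and 0.0703. The call of Ercc5 on the Tip30+/- background was lost without any 1 of the Tip30+/- livers and without Ncoa5+/-Tip30+/- 2 or 3 (highest adjusted p = 0.140). It was also lost when the Ncoa5+/-Tip30+/- and Tip30+/- livers were fitted alone (limma, adjusted p = 0.0554).

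Each 4-against-4 comparison has 70 arrangements, so an exact permutation test cannot go below p = 0.0286, and that value was reached by Polk, Mgmt and Ercc5 on both backgrounds. Groups that do not overlap always give this smallest p, so it adds nothing to the separation itself. In each comparison these 3 of 33 members were separated upward, against 3.25% and 7.1% of all tested genes, and the second share is near that of the members. Parp1 was separated downward in the second comparison, at 936 to 1146 in Ncoa5+/-Tip30+/- and 1209 to 1437 in Tip30+/- livers. It was 1 of 33 members, and the share of all tested genes separated downward there is not reported here. Whether this separation is unusual therefore cannot be said. Without the 4 livers low in Zhx2, which are all wild type or Ncoa5+/-, 2 livers remained in each of those groups; Polk then had 1.22 and Mgmt 0.91, and neither passed (adjusted p = 0.0991 and 0.135). On the Tip30+/- background Ercc5 had 0.65 in that fit, which estimates the spread from fewer livers, and narrowly missed (adjusted p = 0.0503). Over both backgrounds the count without these livers was 2 (Polk and Mgmt). Mice with identification tags under 4300 and those with higher tags, read apart, gave Polk differences of 1.10 and 1.41 in the first comparison and 1.53 and 1.49 in the second, and Mgmt differences of 1.46 and 0.79, then 1.31 and 0.95. These tags are not labelled as batches, and among Tip30+/- mice only 1 had a higher tag.

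**Figure D4:**
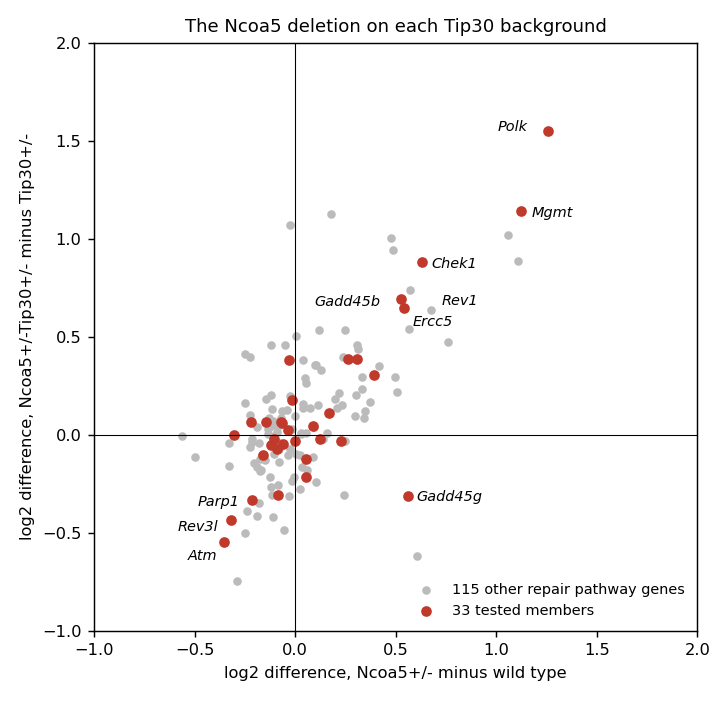
Each point is a gene, with its log2 difference in Ncoa5+/- against wild type (horizontal) and in Ncoa5+/-Tip30+/- against Tip30+/- (vertical); red points are the 33 tested members and grey points 115 other repair genes. Of the members, Polk and Mgmt lie farthest to the upper right, most others lie near 0 on both axes, and Gadd45g has opposite signs.

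Over the 33 members the log2 differences on the separate backgrounds had a Pearson r of 0.849, and 20 had the same sign; without Polk and Mgmt r was 0.690 over 31 genes, and without Ercc5 as well it was 0.649 over 30. This is a description across genes, which are not independent replicates and which all come from the same 16 libraries. The test of the difference between the backgrounds, the interaction of the deletions, called none of the 33 members and 0.0% of all tested genes (limma; 0 members at an unadjusted p under 0.05 against 4.26% of all tested genes, and 0 by edgeR and DESeq2 on the recovered reads). For Polk the interaction was 0.29 (log2) with a 95% interval of -0.27 to 0.85, for Mgmt 0.02 (-0.49 to 0.52) and for Ercc5 0.11 (-0.36 to 0.57). For these 3 genes the intervals thus allow a difference between backgrounds of that size.

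The Tip30 deletion went with no called member. In Tip30+/- against wild-type livers 0 of 33 passed, against 0.0131% of all tested genes, and 1, Ogg1, had an unadjusted p under 0.05 by limma, edgeR and DESeq2 alike, against 7.34% of all tested genes by limma. Ogg1 was 153, 145, 158 and 142 normalized counts in wild-type livers and 120, 128, 116 and 125 in Tip30+/- livers, so the groups did not overlap, as in 2.44% of all tested genes in that direction. The difference was -0.29 ± 0.14 (log2), with an exact permutation p of 0.0286 and an adjusted p of 0.679 (limma). In Ncoa5+/- livers Ogg1 was 106 to 143 and in Ncoa5+/-Tip30+/- livers 112 to 148, which is also mostly below wild type.

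In Ncoa5+/-Tip30+/- against Ncoa5+/- livers 0 of 33 passed, against 0.0197% of all tested genes, and 3 had an unadjusted p under 0.05 by limma, edgeR and DESeq2 (Ddb2, Ercc3 and Parp1; limma-voom found 2, without Ercc3), against 8.93% of all tested genes by limma. Ddb2 was higher by 0.40 ± 0.19 (log2), Ercc3 had -0.27 ± 0.12 and Parp1 -0.23 ± 0.10, with adjusted p-values of 0.551, 0.536 and 0.514 (limma). Averaged over both Ncoa5 backgrounds the Tip30 deletion again called 0 members against 0.131% of all tested genes; Ercc3 (-0.19 ± 0.08) and Parp1 (-0.17 ± 0.07) had unadjusted p-values under 0.05 with each of these tools, against 11.8% of all tested genes by limma. For Polk and Mgmt the Tip30 differences were 0.08 (95% interval -0.20 to 0.36) and 0.16 (-0.09 to 0.42). The intervals of 25 of the 33 members lay within 1.5-fold.

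With both deletions together, against wild type, 3 members rose and 1 fell, against 2.67% of all tested genes called (1.4% higher and 1.27% lower). Polk had 1.48 ± 0.19 (log2; 2.79-fold; limma, adjusted p = 0.000354), Mgmt 1.30 ± 0.17 (2.46-fold; 0.000474) and Ercc5 0.70 ± 0.16 (1.62-fold; 0.0258). Parp1 had -0.45 ± 0.10, a level 73.3% of wild type (adjusted p = 0.0254), and here its groups did not overlap, as in 6.0% of all tested genes in that direction. This comparison uses the same wild-type livers as that of Ncoa5+/-, so their values for the members are not independent. Ercc5 and Parp1 lost their calls without wild type 1, wild type 2, Ncoa5+/-Tip30+/- 2 or Ncoa5+/-Tip30+/- 3. The same held without the livers low in Zhx2 (0.57 and -0.34, limma, highest adjusted p = 0.182) and in a fit of these 2 groups alone. The count of members called was then 2. Parp1 also lost its call with no filter on low genes (limma, adjusted p = 0.0542).

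A wider list of 124 other repair genes, sorted into 9 pathways, was read in the same way. A row was found for 123 of them and 115 were tested. Over both backgrounds 3 rose and 2 fell, a share of 4.35% against the 7.89% of all tested genes; their median log2 difference was 0.01. All 3 risers, Rev1, Alkbh2 and Samhd1, were among the 16 genes listed for translesion synthesis, nucleotide supply and direct reversal, the class that Polk and Mgmt would also belong to. Of all tested genes 3.94% were called higher. The class is a mixed grouping made here, and the lists were chosen with earlier results of these data known, so this clustering was not tested. The calls of Alkbh2 and Samhd1 were lost in 11 and 16 of 27 other settings. The 8 mismatch repair genes, the 17 of excision repair, the 16 of homologous recombination, the 13 of the Fanconi pathway, the 12 of checkpoint signalling and the 7 of end joining had none called by limma. At an unadjusted p under 0.05, 21 of the 115 genes were found, against 26.1% of all tested genes. In Ncoa5+/- against wild type 1 of the 115 was called, or 0.87% against 0.557% of all tested genes. In Ncoa5+/-Tip30+/- against Tip30+/- 2 rose and 1 fell, or 2.61% against 3.07%.

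Rev1 encodes the deoxycytidyl transferase that gathers translesion polymerases, Polk's product among them, at a blocked fork. It was 260, 240, 211 and 182 normalized counts in wild-type livers and 397, 373, 302 and 350 in Ncoa5+/- livers. It was 265, 287, 238 and 263 in Tip30+/- livers and 450, 432, 449 and 321 in Ncoa5+/-Tip30+/- livers. All 8 livers with the Ncoa5 deletion were above all 8 without it (log2 difference 0.65 ± 0.10, 1.57-fold; limma, adjusted p = 0.000845). It also passed in Ncoa5+/- against wild type (0.67 ± 0.14, adjusted p = 0.0344) and on the Tip30+/- background (0.64 ± 0.14, 0.0243). Of its exon bases 26.6% overlap Eif5b on the other strand, which had a mean of 4035 normalized counts. The difference of Eif5b was 0.02 over both backgrounds (limma, adjusted p = 0.887). It was -0.14 in Ncoa5+/- against wild type and 0.19 on the Tip30+/- background (limma, adjusted p = 0.739 and 0.329). Whether Rev1 shares reads with Eif5b was not tested. The call in Ncoa5+/- against wild type was lost without the livers low in Zhx2 (0.77, adjusted p = 0.150), in a fit of these groups alone (adjusted p = 0.125), with no filter on low genes (adjusted p = 0.0522), without wild type 3 or 4 and without Ncoa5+/- 1, 2 or 4. That on the Tip30+/- background was lost without Tip30+/- 1, 3 or 4 or Ncoa5+/-Tip30+/- 1, 2 or 3, while the call over both backgrounds held in all 27 settings tried.

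The other calls in the wider list were smaller or less firm. Alkbh2, which reverses alkylated bases by oxidation as Mgmt does by transfer, was 74.3 to 140 normalized counts with the deletion and 52.2 to 93.6 without it (log2 difference 0.55 ± 0.15; limma, adjusted p = 0.0334), and 29.5% of its exon bases overlap Usp30. Samhd1, a hydrolase that lowers nucleotide pools, was 694 to 925 against 561 to 787 (0.25 ± 0.07, adjusted p = 0.0452). Paxip1, a chromatin mediator of break signalling, was lower in all 8 livers than in the other 8, at 316 to 462 against 472 to 565 (-0.30 ± 0.08, adjusted p = 0.0262). Of the 115 genes 1 was separated downward in this way, and the share of all tested genes is not reported here. Paxip1 was also called lower on the Tip30+/- background, a call lost in 13 of 20 other settings. Parg, which removes the poly(ADP-ribose) that Parp1's product makes, was 276 to 453 against 423 to 572 (-0.31 ± 0.09, adjusted p = 0.0386). Dna2, a nuclease that resects broken ends, passed in the comparison on the Tip30+/- background, at 320 to 401 in Ncoa5+/-Tip30+/- against 248 to 263 in Tip30+/- livers (0.46 ± 0.11, adjusted p = 0.0390). When 1 library at a time was left out, the call was lost in 9 of 16 fits for Alkbh2, 14 of 16 for Samhd1, 2 of 16 for Paxip1, 9 of 16 for Parg and 8 of 8 for Dna2. Without the 4 livers low in Zhx2 the calls of Alkbh2, Samhd1, Paxip1 and Parg over both backgrounds were all lost (adjusted p = 0.126, 0.0759, 0.156 and 0.239), and those of Paxip1 and Parg were lost with upper-quartile scaling too (adjusted p = 0.0525 and 0.0711). Among classes with no call, the smallest adjusted p within a class was 0.0752 for the phosphatase gene Cdc25a (0.38), 0.0908 for Fanca (0.74), 0.127 for Mlh3 (-0.24) and 0.256 for Paxx (-0.28).

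Some markers of other cell types moved in the same comparison, in which 3.94% of all tested genes were called higher. Of 10 tested lymphocyte markers 4 rose over both backgrounds, Cd8a by a log2 difference of 3.15, Nkg7 by 1.41, Cd3e by 1.25 and Cd3g by 0.90 (limma, adjusted p = 6.98e-05, 0.000706, 0.0267 and 0.0259). The 12 listed summed to 193 to 395 normalized counts with the Ncoa5 deletion and to 77.4 to 257 without it, with Klrb1c at 0 in some livers of each kind. Among 7 listed cholangiocyte markers Spp1 (0.97) rose, and among 8 listed stellate cell markers Col1a1 (0.97) and Col3a1 (0.58). Neither class was separated as a sum: cholangiocyte markers summed to 1081 to 2116 normalized counts with the deletion and 604 to 1728 without it. Stellate markers summed to 5578 to 9368 and 5773 to 7344. The stellate marker Lrat had lower means with the deletion (445 in Ncoa5+/- against 599 in wild type, 407 in Ncoa5+/-Tip30+/- against 423 in Tip30+/-). By limma 0 of 9 hepatocyte, 9 macrophage and 8 sinusoidal endothelial markers passed. At an unadjusted p under 0.05 there were 3, 2 and 1, against 26.1% of all tested genes. Neutrophil markers summed to 94.7 to 267 normalized counts with the deletion and 51.2 to 204 without it. Erythroid markers summed to 11730 to 42020 and 7367 to 23660. Calls of single markers in these last lists are not reported here. The part of other cell types in the values of Polk, Mgmt, Ercc5 and Parp1 was not tested.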

How the data were processed

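Polyadenylated RNA of 16 livers was sequenced, 1 library per mouse. The authors deposited 1 table of DESeq2 normalized counts, a signal in which the reads of a gene are scaled by 1 size factor for each library; reads were trimmed with Trimmomatic 0.36, aligned with STAR 2.6.0c to GRCm38 and scaled with DESeq2 1.28.1, per the submitters' processing notes. No counting program, annotation release or strand handling is named in the sources used here. Every deposited value in every library (100%, tolerance 0.0001 of a read) was a whole multiple of 1 read, which gave back whole reads for count models.

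Groups came from the genotype labels, and replicate numbers follow accession order. Differences were tested on log2(normalized count + 1) with limma 3.58.1 (trend, robust) in R 4.3.3, as 1 model of 4 group means with 8 two-sided contrasts over 15263 genes with a mean of at least 10; adjusted p-values are Benjamini-Hochberg over those genes, called under 0.05, and ± is the SE unless SD is stated. A fold change on this scale understates that of low genes. Exact permutation tests shuffled mice. Alternatives were pseudocounts of 0.5 and 5, no filter or one at 50, TMM and upper-quartile scaling, the mouse tag range as covariate, groups alone, each library left out, and edgeR 4.0.16, limma-voom and DESeq2 1.42.0 on the recovered reads; the pipeline was tested on simulated data. Members and lists were chosen with earlier results of these data known. A member is given liver by liver if it passed in any comparison or had the smallest p of its role class for the Ncoa5 deletion over both backgrounds; Ogg1, Chek1 and the tag-range values were added after the values were seen. Of the wider list, genes that passed and otherwise the smallest p of a class are named; that of the excision repair class is not reported here. Exon overlaps come from GENCODE on GRCm38, and promoters from RefSeq.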

Additional observations from a re-analysis of the deposited data

Results flagged for a closer look

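Within a genotype of 4 livers, a single liver stood far from the other 3 in 7 of 136 checks of a member in a genotype; chance alone gives about 1 in 20. In normalized counts, Atr was 132.7 in Ncoa5+/-Tip30+/- 2, against 206.3 to 215.5 in the other 3 livers of that genotype. Ogg1 was 147.7 in the same liver, against 112.4 to 115.5. Rrm2b was 86.63 in Ncoa5+/-Tip30+/- 4, against 45.93 to 52.68.

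Xpc was 624.6 in Ncoa5+/- 3, against 491.8 to 506.8, and Gadd45a was 492.2 in Ncoa5+/- 1, against 136.4 to 186.3. Parp2 was 270.9 in wild type 4, against 298.6 to 300.8, and Gadd45b was 110.4 in wild type 2, against 60.34 to 67.4. No liver was apart in more than 2 members, none of the 4 called members was among them, and no Tip30+/- liver was.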

How the results depend on the processing

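Polk and Mgmt kept their call over both Tip30 backgrounds in all 27 settings tried, with log2 differences of 1.34 to 1.48 and 1.03 to 1.21, and Ercc5 did so in 26 of 27 (0.47 to 0.67). Parp1 kept its in 19 of 27 (-0.30 to -0.21). No called member or called wider-list gene (Rev1, Alkbh2, Samhd1, Paxip1, Parg and Dna2) reversed direction in the settings run for it; directions of genes that did not pass were not followed across settings. Without the 4 livers low in Zhx2, a setting chosen after seeing the data, the count of members called was 0 in Ncoa5+/- against wild type, 2 in Ncoa5+/-Tip30+/- against wild type and 2 over both backgrounds; that setting leaves fewer livers. In Ncoa5+/-Tip30+/- against wild type the count was 2 when these groups were fitted alone and 2 to 5 when 1 library at a time was left out. Over both backgrounds leaving out 1 library gave counts of 3 to 6, the added calls being Rev3l without Ncoa5+/- 3, and Atm and Rev3l without Ncoa5+/-Tip30+/- 4; with the tag range as covariate the count was also 6. In Ncoa5+/-Tip30+/- against Tip30+/- it was 2 to 4, and in the Tip30 comparisons and the interaction 0 in every setting. The causes were not tested. No paired analysis was possible because the replicate numbers only follow accession order and the labels pair no mice. With 4 mice per genotype, differences under about the half-width of each interval could not be seen. Some larger ones, such as those of Rev3l, Atm and Gadd45b, were not called either. The intervals are not adjusted for the number of genes tested, whereas the calls are. Fancd2 was too low to test.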
